A study of Mus musculus with 8 samples.

Results

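The immediate-early genes described here are 8 genes, Fos, Jun, Junb, Egr1, Atf3, Ier3, Btg2 and Dusp1, listed by symbol among the 12701 genes of an expression table of mouse alveolar macrophages. All 8 were in the table and all 8 passed the filter that left 11273 genes for testing. Alveolar macrophages live in the airspaces of the lung, and here they were sorted by flow cytometry from lungs of C57BL/6 mice. The groups were d35 (3 libraries) and d15 (2 libraries), from mice that carried tumors grown from KP or KP-GFP cells, a mouse lung tumor line injected into the tail vein (the labels do not say which of the lines a mouse received), and naive (3 libraries), from mice labelled as naive, with no tumor named. The protocol text gives a harvest between 15 and 30 days, so the day in the d35 label is uncertain. Each library was made from RNA of 20000 sorted cells. Nothing in the labels ties each library to its own animal, and the p-values below therefore reflect only the variation among these libraries, part of which may be technical.

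Immediate-early genes are transcribed soon after a cell receives a stimulus, without the need for new protein. Growth factors, cytokines, mechanical strain and stress reach them through MAP kinases, which act on serum response factor with its partners and on CREB at promoters and enhancers that are already accessible. Their mRNAs are short-lived, so levels follow recent signals closely. In macrophages the products set the early phase of the inflammatory response. Enzymatic digestion of tissue and cell sorting also induce them, which is why the spread between libraries is given before any difference between groups.

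Levels are given as scaled CPM, the authors' per-library scaling of reads to a common library size. The libraries held between 27465745 and 39572173 recovered reads. The least abundant of the 8 genes, Ier3, still had 327 to 1680 reads in a library. Counting error was thus small beside the whole range of levels over the libraries for all 8 genes. For Ier3 it may not have been small beside the difference between the d15 libraries, at 29.8 and 31.5 scaled CPM. Library preparation, from 1 ng of RNA, may add error that read numbers do not show. All 15 listed alveolar macrophage markers had reads in every library. Siglecf was at 557 to 644 scaled CPM in d35, 558 and 589.7 in d15 and 679 to 750.1 in naive libraries. Marco ranged from 155 to 665 within d35. T and NK cell markers summed to at most 4.05 scaled CPM in any library. Neutrophil markers summed to between 49.6 and 94.1 over the libraries, with Csf3r the most abundant of them.

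Most of the 8 genes were abundant transcripts. Per kilobase of exon, Fos, the AP-1 subunit that pairs with Jun proteins, stood first in each group, with means of 497 scaled CPM per kilobase in d35, 966 in d15 and 728 in naive libraries. Dusp1, the MAP kinase phosphatase that ends the inducing signal, averaged 379 in d35, 541 in d15 and 364 in naive libraries on this scale. Junb, an AP-1 subunit with weaker transactivation than Jun, averaged 327 in d35, 476 in d15 and 427 in naive libraries on this scale. Dusp1 and Junb came next, with Dusp1 ahead in d35 and d15 and Junb ahead in naive libraries, and their ranges overlapped in all 3 groups. Btg2, which binds the deadenylase complex and restrains proliferation, was the fourth, Jun the fifth and Egr1, a zinc finger transcription factor, the sixth in each group. Atf3, a bZIP factor that dampens inflammatory transcription in macrophages, was the seventh. Ier3, an early response gene with roles in survival and NF-kB feedback, was the eighth, at 25.3 scaled CPM per kilobase in d35, 27.1 in d15 and 10.2 in naive libraries. Neighbours in this order from Jun downwards overlapped in d35 libraries and did not overlap in d15 libraries, and in naive libraries Ier3 lay apart from Atf3 while Jun, Egr1 and Atf3 overlapped in neighbouring pairs. The mean of Fos exceeded that of 99.3% of the genes in the table in d35, 99.8% in d15 and 99.7% in naive libraries, before division by length.

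The genes varied more within a group than other genes of similar level. Egr1 had a within-group SD of 1.25 on the log2 scale and Fos 0.68, while the 500 genes nearest to each of them in mean level had a median of 0.097. Across the 8 genes the SD lay between 0.41 (Btg2) and 1.25 (Egr1), larger than in at least 98.0% of the 500 genes of nearest mean. Egr1 had 105 scaled CPM in naive replicate 1, against 844 and 742 in naive replicates 2 and 3, an 8.01-fold range among naive libraries. Naive replicate 1 was thus far below the other naive libraries for this gene.

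The same libraries stood low or high for most of the 8 genes. Naive replicate 1 was the lowest naive library for 7 of 8, Ier3 being the exception, while 37.3% of all tested genes were lowest there. Replicate 3 of d35 was the highest d35 library for 8 of 8, against 34.9% of all tested genes. Replicate 1 of d35 was the lowest d35 library for 7 of 8, Atf3 being the exception, against 30.5% of all tested genes. Of the d15 libraries, replicate A was the lower for 7 of 8, against 49.9% of all tested genes. The 8 genes summed to 2419, 4146 and 5881 scaled CPM in d35 replicates 1 to 3, to 6304 and 7724 in d15 replicates A and B, and to 3574, 7198 and 6812 in naive replicates 1 to 3. Fos, Dusp1 and Junb made up most of each sum. The d35 and d15 sums did not overlap, whereas the d35 and naive sums did, since naive replicate 1 lay below d35 replicates 2 and 3. Taken singly, Egr1, Dusp1, Btg2, Atf3 and Ier3 overlapped between d35 and d15 libraries. Of all tested genes, 38.4% did not overlap between these groups.

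**Figure D1:**
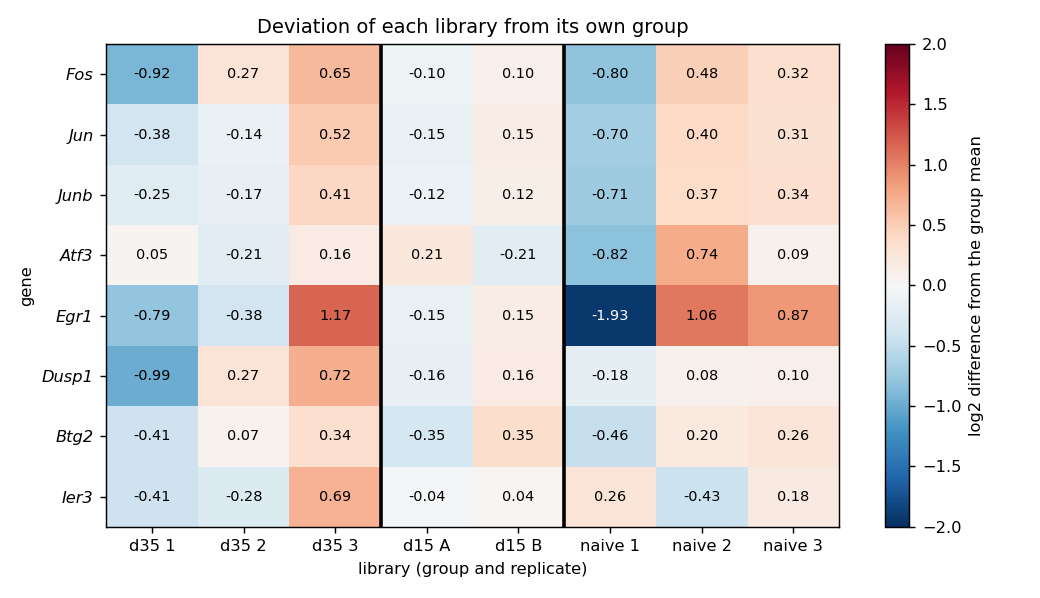
Difference of each library (columns) from the mean of its own group on the log2(scaled CPM + 1) scale, for each gene (rows), with d35, d15 and naive libraries parted by black lines. Naive replicate 1 is negative for 7 of 8 genes, down to -1.93 for Egr1, and d35 replicate 3 is positive for all 8, up to 1.17 for Egr1.

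Gene lists of other stress and quality measures did not all share this order of libraries. Heat shock genes, which sorting and digestion also induce, summed to 4042 scaled CPM in naive replicate 1, above the 3018 and 3088 of naive replicates 2 and 3. Their sums were 4434, 4397 and 5104 in d35 replicates 1 to 3 and 5212 and 4648 in d15 replicates A and B, all above every naive library. Hspa5, an endoplasmic reticulum chaperone, made up the largest part of these sums, at 1910.3 to 2229.6 in d35, 1689 and 1933 in d15 and 1266 to 1688 in naive libraries. The stress-inducible HSP70 genes set single libraries apart. Hspa1a had 6.68, 11.6 and 39.3 scaled CPM in d35 replicates 1 to 3, 5.04 and 4.11 in d15 replicates A and B, and 38.9, 1.32 and 2.53 in naive replicates 1 to 3. Hspa1b, a near-identical copy whose reads may be split with Hspa1a, had 8.10, 16.5 and 65.2 in d35, 8.01 and 7.81 in d15 and 68.9, 1.84 and 1.54 in naive libraries. Naive replicate 1 and d35 replicate 3 were thus the 2 highest libraries for both genes, while for the immediate-early genes naive replicate 1 was low and d35 replicate 3 high within their groups. The 5 listed mitochondrially encoded mRNAs found in the table had their lowest sum in naive replicate 1. It was 3160 scaled CPM there, against 5089.8 and 4134 in naive replicates 2 and 3. In d35 replicates 1 to 3 the sums were 4910.3, 3644 and 3923, and in d15 replicates A and B 5015 and 4839. Replicate 1 of d35, the lowest d35 library for most immediate-early genes, was thus the highest d35 library for these mRNAs. Upstream signalling genes, among them MAP kinases and CREB family members, summed to between 1947 and 2108 over the 8 libraries. Fibroblast markers summed to 9.8, 25.7 and 28.2 in naive replicates 1 to 3, and endothelial markers to 269, 343 and 309. Epithelial and tumor, and T and NK, sums were also lowest in naive replicate 1 among naive libraries. Neutrophil, dendritic, and monocyte and interstitial macrophage sums were highest there. Whether other cells, dissociation, sorting or RNA quality set the level of the immediate-early genes was not tested.

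**Figure D2:**
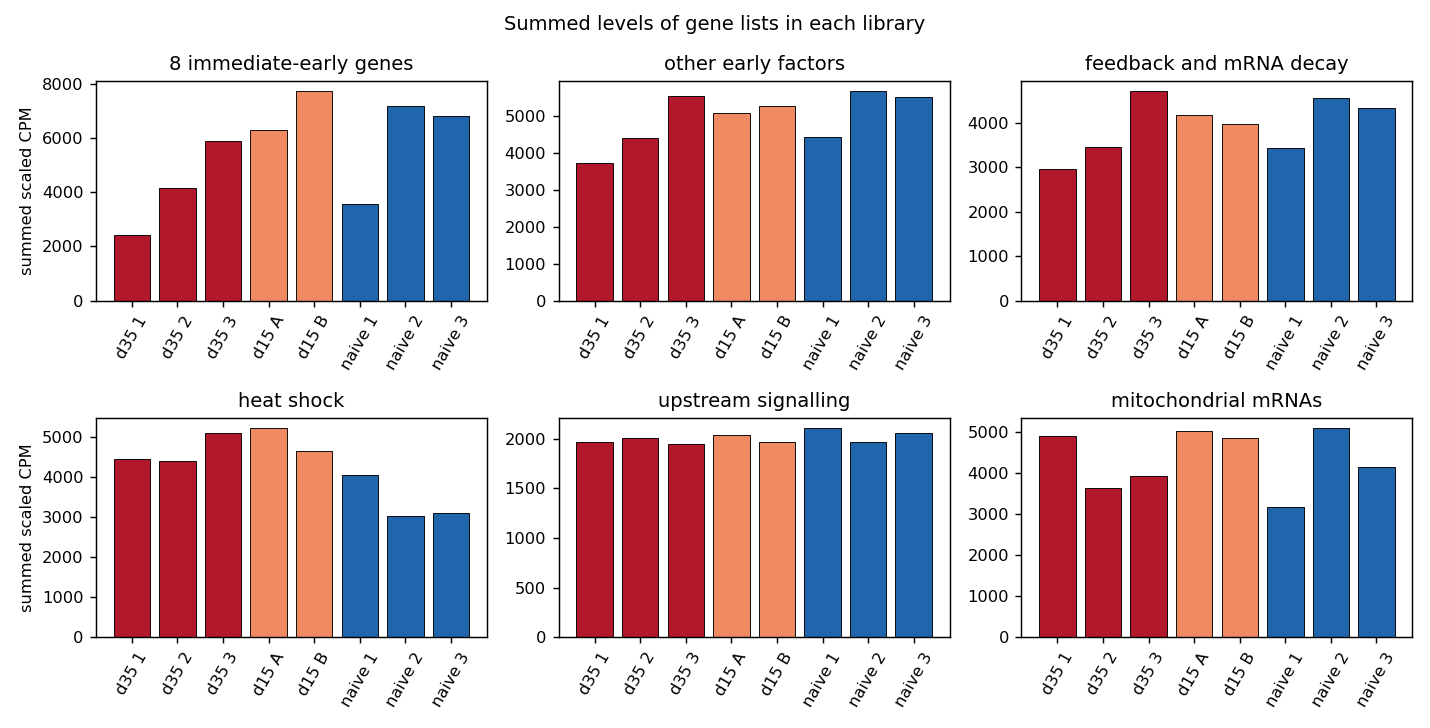
Summed scaled CPM of the 8 immediate-early genes and of 5 other gene lists (panels) in each library (bars, coloured by group). The 8 genes range from 2419 (d35 replicate 1) to 7724 (d15 replicate B), while upstream signalling genes stay between 1947 and 2108.

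At d35 relative to naive macrophages, Jun and Btg2 fell and Ier3 rose, and the other 5 genes did not pass the test. Genes were called at an adjusted p under 0.05 in limma, fitted on log2(scaled CPM + 1) over all 8 libraries with Benjamini-Hochberg adjustment over 11273 genes. In this comparison 16.2% of all tested genes were called, 9.86% as higher and 6.32% as lower, or 1112 and 712 genes, and after quantile normalization the split was 896 and 873. Log2 fold changes were negative for 7 of the 8 genes, and their median was -0.46, with a median of -0.00223 over all tested genes. Beside this comparison, monocyte and interstitial macrophage markers rose in 6 of 8 cases, summing to 781, 199 and 369.5 scaled CPM in d35 replicates 1 to 3 and to 66.3 to 69.0 in naive libraries, so d35 replicate 1, the lowest for most of the 8 genes, was the highest for these markers. All 8 endothelial markers fell, with sums of 163 to 214 in d35 and 269 to 343 in naive libraries. Every listed marker of either kind had reads in all of these libraries. Of 7 epithelial and tumor markers 2 rose and 1 fell, while their sums were 282 to 408 in d35 and 352 to 408 in naive libraries. The keratin genes Krt8, at 18.8, 10.1 and 16.0 scaled CPM in d35 and 0.118 to 0.336 in naive libraries (limma adjusted p = 1.11e-05), and Krt18, at 18.5, 7.26 and 18.2 in d35 and 0.124 to 0.333 in naive libraries (adjusted p = 7.71e-05), rose, and Epcam fell by 0.79 on the log2 scale (adjusted p = 0.0194). Of 4 B cell markers 3 fell, with sums of 3.78 to 6.93 in d35 and 10.4 to 15.5 in naive libraries. Of 4 neutrophil markers 1 rose, S100a9 (limma adjusted p = 0.0497), at 0.441 to 5.92 in d35 and 0.0168 to 0.265 in naive libraries. Of 15 alveolar macrophage markers 3 rose and 2 fell, Siglecf among the latter (limma adjusted p = 0.033). The part of other cells in the levels of the immediate-early genes was not tested, and in sorted bulk samples fewer cells of a type and less RNA per cell cannot be told apart.

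Jun (chromosome 4, 95049034 to 95052222, 1 exon, GRCm38) encodes the main activating partner of Fos in AP-1. It had 151, 178 and 284 scaled CPM in d35 replicates 1 to 3, against 274, 589 and 553 in naive replicates 1 to 3. All d35 libraries lay below naive replicates 2 and 3, and d35 replicate 3 lay just above naive replicate 1. The mean was 204 ± 70 in d35 and 472 ± 172 in naive macrophages (SD, n = 3 each). Jun fell by 1.18 on the log2 scale (SE 0.28, limma adjusted p = 0.0214). The log2 fold change was between -1.53 and -0.98 in the 21 alternatives, 18 of which kept the call. Leaving out naive replicate 2 (limma adjusted p = 0.0871), naive replicate 3 (0.074) or d35 replicate 1 (0.0676) ended it.

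Btg2 (chromosome 1, 134075170 to 134079120, 2 exons) fell as well. It had 313, 437 and 527 scaled CPM in d35 replicates 1 to 3, against 584, 923 and 960.2 in naive replicates 1 to 3. The groups did not overlap. That held for 36.7% of all tested genes, 15.9% with d35 lower and 20.7% with d35 higher. Btg2 fell by 0.95 on the log2 scale (SE 0.24, limma adjusted p = 0.025). The call ended when naive replicate 2 was left out (limma adjusted p = 0.0953), or naive replicate 3 (0.0847) or d35 replicate 1 (0.0754), and the log2 fold change stayed between -1.18 and -0.74 in all 21 alternatives.

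Ier3 (chromosome 17, 35821684 to 35822923, 2 exons) went the other way. It had 19.9, 21.9 and 43.9 scaled CPM in d35 replicates 1 to 3, against 13.7, 8.09 and 12.9 in naive replicates 1 to 3. Every d35 library was above every naive library. Ier3 rose by 1.18 on the log2 scale (SE 0.27, limma adjusted p = 0.017), with the call kept in 20 of 21 alternatives and lost without naive replicate 2 (adjusted p = 0.0714).

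The other 5 genes overlapped between d35 and naive macrophages. They lie, in GRCm38, on chromosome 12 from 85473890 to 85477273 (Fos), chromosome 8 from 84974484 to 84978718 (Junb), chromosome 18 from 34859823 to 34864984 (Egr1), chromosome 17 from 26505590 to 26562128 (Dusp1, the span of its longest model) and chromosome 1 from 191170296 to 191218039 (Atf3). Fos had 559, 1279 and 1668 scaled CPM in d35 replicates 1 to 3, against 921, 2224 and 1994 in naive replicates 1 to 3, with -0.59 as the log2 fold change (SE 0.39, limma adjusted p = 0.317). Egr1 had 114, 152 and 448 scaled CPM in d35 libraries, against 105, 844 and 742 in naive libraries, with -1.02 as the log2 fold change (SE 0.70, limma adjusted p = 0.337). The sizes for Egr1 and Jun were similar, and the standard error of Egr1 was larger. Junb had 621, 655 and 982 in d35 libraries, against 568, 1205 and 1175 in naive libraries (log2 fold change -0.34, SE 0.26, limma adjusted p = 0.405). Dusp1 had 564, 1357 and 1844 in d35 libraries, against 1062, 1267 and 1288 in naive libraries (log2 fold change -0.10, SE 0.33, limma adjusted p = 0.862). Its naive libraries were close to each other, with a CV of 10.4%, while d35 libraries had a CV of 51.5%. The means of Dusp1, 1255 in d35 and 1205 in naive libraries, differ in the opposite direction to the log2 fold change. Atf3 had 77.5, 64.8 and 84.2 in d35 libraries, all inside the naive range of 46.3 to 139 (log2 fold change -0.14, SE 0.30, limma adjusted p = 0.779).

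Naive replicate 1 weighed on these values. Without it, 5 of the 8 genes were called at d35, Egr1 at -1.99 on the log2 scale (limma adjusted p = 0.0296) and Junb with -0.69 (adjusted p = 0.0438) beside Jun, Btg2 and Ier3. Over all genes, 907 of 11240 were called without naive replicate 1, against 1824 of 11273 in the main fit. When replicate 1 was left out of both naive and d35, an alternative chosen after the data were seen, 3 of the 8 genes were called. Over all genes it called 493 of 11122.

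**Figure D3:**
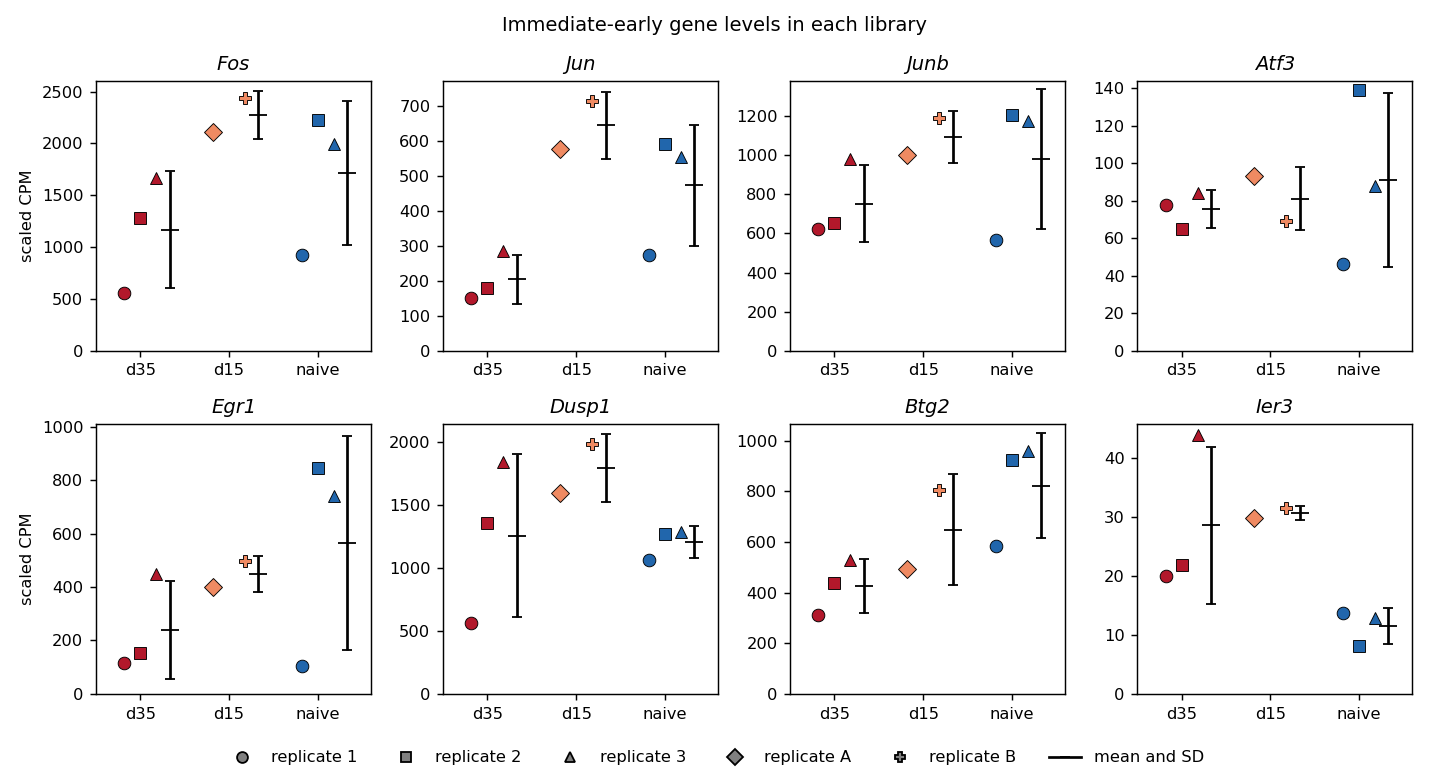
Level of each gene (panels, scaled CPM) in each library, with d35, d15 and naive groups from left to right, the marker shape giving the replicate and the bar the mean and SD of the group. Ier3 is higher in every d35 and d15 library than in any naive library, while for Egr1 naive replicate 1 (105) lies below all 3 d35 libraries and the other naive libraries lie above them.

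At d15 relative to naive macrophages, Ier3 was the member that rose, and no member fell. In this comparison 4.37% of all tested genes were called, 2.37% as higher and 2.00% as lower. Log2 fold changes were positive for 6 of the 8 genes, with a median of 0.36 against 0.0121 over all tested genes. The naive libraries are the same as in the d35 comparison, so the results against naive are not independent of each other. Ier3 had 29.8 and 31.5 scaled CPM in d15 replicates A and B, against 13.7, 8.09 and 12.9 in naive libraries. Both d15 libraries lay above all naive libraries. Ier3 rose by 1.36 on the log2 scale (SE 0.30, limma adjusted p = 0.035). This call held in 14 of 20 alternatives, and leaving out any single naive or d15 library ended it, with adjusted p between 0.0519 (without naive replicate 1) and 0.225 (without d15 replicate B). It also ended when the trend with transcript length was removed from each library (adjusted p = 0.0516), while the log2 fold change stayed between 1.12 and 1.49.

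Dusp1 had 1599 and 1986 scaled CPM in d15 replicates A and B, against 1062, 1267 and 1288 in naive libraries. The groups did not overlap, as for Ier3. That held for 48.2% of all tested genes, 25.9% with d15 higher and 22.3% with d15 lower. Its log2 fold change of 0.57 (SE 0.37) did not pass in the fit over all libraries (limma adjusted p = 0.352) and passed when d15 and naive libraries were fitted alone (adjusted p = 0.0176). The d35 libraries, whose Dusp1 levels spread 3.27-fold, enter the spread estimate of the first fit and not of the second. In the authors' deposited table of this comparison, Ier3 had a log2 fold change of 1.38 (FDR 0.000382) and Dusp1 of 0.55 (FDR 0.00209). The other 6 genes had FDR values between 0.588 (Jun) and 0.988 (Junb) in the authors' deposited table, where 389 of 10778 genes had an FDR under 0.05.

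The AP-1 genes and Egr1 were not called at d15. Jun had 576 and 712 scaled CPM in d15 libraries, against 274 to 589 in naive libraries (log2 fold change 0.52, SE 0.32, limma adjusted p = 0.325). Fos had 2109.7 and 2436 in d15 libraries, against 921 to 2224 in naive libraries (log2 fold change 0.50, SE 0.43, limma adjusted p = 0.497). Each of these d15 ranges overlapped the naive range. Junb had 1001 and 1189.8 in d15 libraries (log2 fold change 0.23, SE 0.29, limma adjusted p = 0.665) and Egr1 402 and 496 (log2 fold change 0.14, SE 0.78, adjusted p = 0.932), although the mean of Egr1 was 449 in d15 and 564 in naive libraries. The direction of both turned without naive replicate 1, to -0.12 for Junb and -0.82 for Egr1. Atf3 had 93.0 and 69.1 in d15 libraries (log2 fold change -0.05, SE 0.34, limma adjusted p = 0.948) and Btg2 493 and 804 (log2 fold change -0.35, SE 0.27, adjusted p = 0.435).

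Between the tumor groups, all 8 log2 fold changes of d35 over d15 were negative, with a median of -0.64 against -0.00256 over all tested genes. Jun fell and the other 7 did not pass, where 7.39% of all tested genes were called, 4.59% as higher and 2.80% as lower. Jun had 151, 178 and 284 scaled CPM in d35 libraries, against 576 and 712 in d15 libraries, so the lowest d15 library was above the highest d35 library. It fell by 1.69 on the log2 scale (SE 0.32, limma adjusted p = 0.0107), and the call held in 19 of 20 alternatives, ending without d15 replicate B (adjusted p = 0.116). Fos and Junb also did not overlap between d35 and d15, and did not pass. Fos had 559 to 1668 in d35 and 2109.7 and 2436 in d15 libraries (log2 fold change -1.10, SE 0.43, limma adjusted p = 0.161). Junb had 621 to 982 in d35 and 1001 and 1189.8 in d15 libraries (log2 fold change -0.57, SE 0.29, limma adjusted p = 0.296). Groups did not overlap for 38.4% of all tested genes, 19.5% with d35 lower and 19.0% with d35 higher. Btg2, at 313 to 527 in d35 and 493 and 804 in d15 libraries, differed by -0.60 on the log2 scale (SE 0.27, limma adjusted p = 0.218). The remaining 4 genes had log2 fold changes of -1.17 (Egr1, SE 0.78), -0.67 (Dusp1, SE 0.37), -0.19 (Ier3, SE 0.30) and -0.09 (Atf3, SE 0.34), with limma adjusted p of 0.432, 0.329, 0.781 and 0.911. Ier3, raised over naive in either tumor group, was thus at 19.9 to 43.9 in d35 libraries around the 29.8 and 31.5 of d15 libraries.

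**Figure D4:**
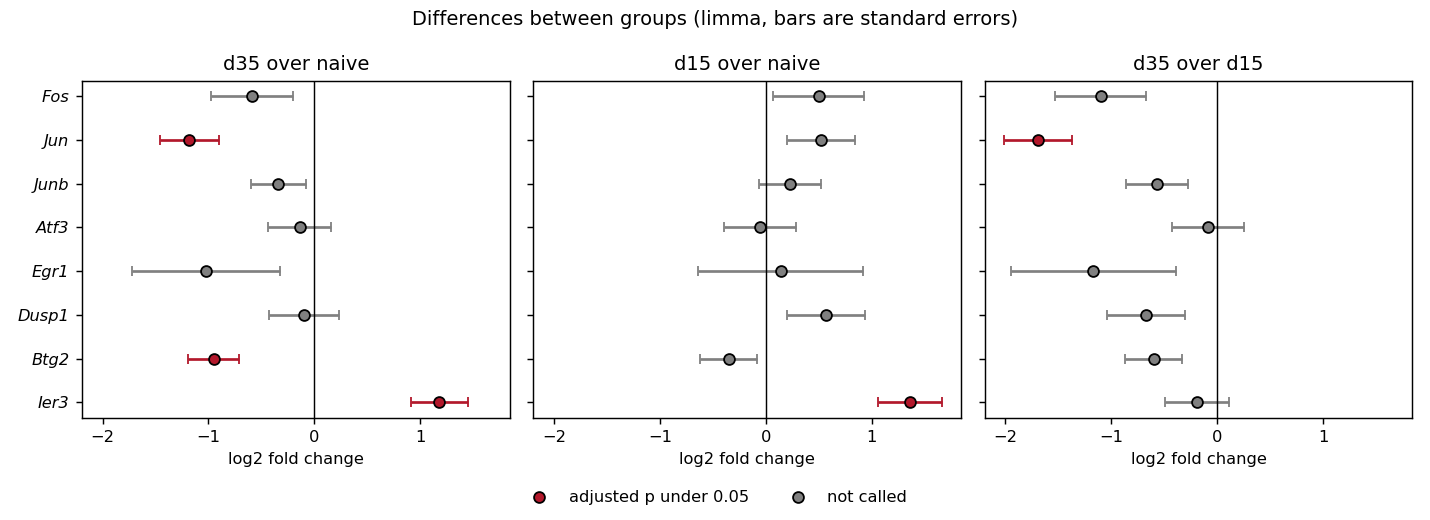
Log2 fold change (x axis) of each gene (y axis) in the 3 comparisons, with standard errors as bars, from limma on log2(scaled CPM + 1). Red points passed an adjusted p of 0.05: Jun and Btg2 lower and Ier3 higher in d35 over naive, Ier3 higher in d15 over naive, and Jun lower in d35 over d15.

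Jun and Junb kept a nearly fixed ratio within each group while their levels varied. The ratio of Jun to Junb was 0.244, 0.272 and 0.289 in d35 replicates 1 to 3, 0.575 and 0.598 in d15 replicates A and B, and 0.482, 0.489 and 0.471 in naive replicates 1 to 3. No group overlapped another, and naive replicate 1, low for both genes, did not differ from the other naive libraries in the ratio. A ratio within a library does not depend on how libraries were scaled. Its within-group SD was 0.083 on the log2 scale, the smallest of the 28 pairs among the 8 genes, whose median was 0.54 and highest value 1.28 (Egr1 and Ier3). Among 11272 other tested genes, Jun had the smallest within-group SD of the ratio to Junb, and Junb that of the ratio to Jun. The mean log2 ratio of d35 was 0.84 below that of naive and 1.13 below that of d15 libraries. Ratios without overlap were common in these small groups. Of the 28 pairs, 11 did not overlap between d15 and naive, 8 between d35 and naive and 14 between d35 and d15 libraries. The share over pairs of all genes was not computed. These pairs were examined after the levels were seen, and the values are a description without a test. A change in the ratio shows that the genes changed unequally and not which of them changed. Jun shares 232 exon bases with the antisense gene Junos and Junb 173 with Prdx2 on the other strand, and whether counting used the strand is not given in the sources used here. Prdx2 stood at 109 to 131 scaled CPM in d35, 104 and 101 in d15 and 75.1 to 91.7 in naive libraries, below Junb in every library. Prdx2 was higher at d35 relative to naive (log2 fold change 0.5, limma adjusted p = 0.00806). Its part in the Junb values and in the ratio was not tested.

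**Figure D5:**
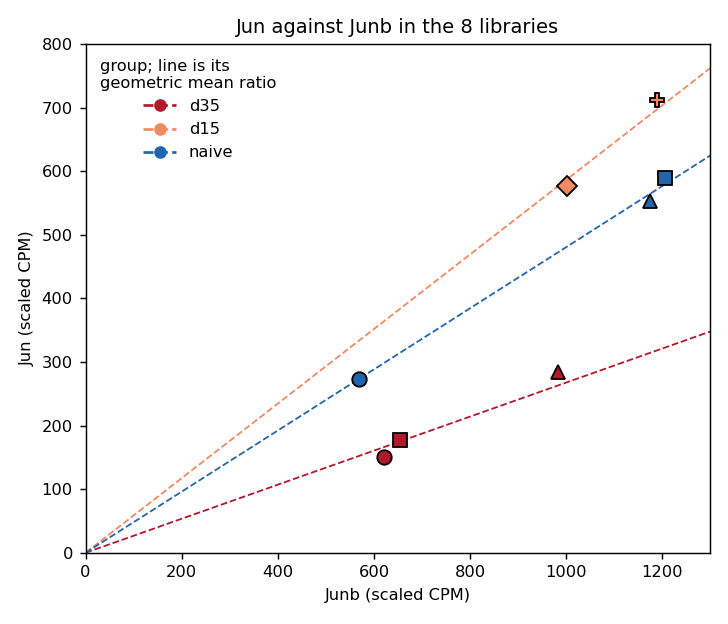
Jun (y axis) against Junb (x axis), both in scaled CPM, for the 8 libraries, with circle, square and triangle for replicates 1 to 3, and diamond and plus for d15 replicates A and B. Dashed lines through the origin give the geometric mean ratio of each group, and the libraries of a group lie along its line although naive replicate 1 has 568 of Junb and naive replicate 2 has 1205.

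The promoters of the genes that passed a test and of Junb are shown because CREB and AP-1 elements near the start site are part of how these genes respond to signals. The sequences are the 250 bases before the transcription start from RefSeq (GRCm38.p6), with matches in capitals. Searched on both strands were TGACNTCA, which covers the CREB element TGACGTCA and the Jun promoter's own AP-1 site, CCAAT, and the NF-kB motif. Of the 8 genes 7 had a promoter to search, Egr1 being the exception. The windows are at chr4:95052223-95052472 for Jun, chr8:84978749-84978998 for Junb and chr1:134079156-134079405 for Btg2, all on the minus strand, and chr17:35821463-35821712 for Ier3 on the plus strand. The gene positions given above are from GENCODE, and the starts differ. The last bases of the Ier3 window lie past the GENCODE start at 35821684, and the Junb and Btg2 windows end short of theirs.
Jun: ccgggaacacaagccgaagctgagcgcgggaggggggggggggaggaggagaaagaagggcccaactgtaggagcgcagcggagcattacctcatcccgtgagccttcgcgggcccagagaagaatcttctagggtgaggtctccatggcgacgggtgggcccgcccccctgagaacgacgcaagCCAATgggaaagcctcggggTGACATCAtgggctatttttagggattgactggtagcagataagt
Junb: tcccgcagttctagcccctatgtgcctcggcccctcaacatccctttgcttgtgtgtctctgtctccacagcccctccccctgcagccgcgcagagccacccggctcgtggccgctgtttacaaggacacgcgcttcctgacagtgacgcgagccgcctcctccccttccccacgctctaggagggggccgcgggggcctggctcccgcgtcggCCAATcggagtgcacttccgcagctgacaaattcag
Btg2: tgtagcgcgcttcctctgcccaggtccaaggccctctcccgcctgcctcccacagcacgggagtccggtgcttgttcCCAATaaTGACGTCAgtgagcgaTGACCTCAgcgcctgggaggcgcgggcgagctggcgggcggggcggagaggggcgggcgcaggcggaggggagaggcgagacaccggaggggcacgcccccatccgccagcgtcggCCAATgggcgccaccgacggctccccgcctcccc
Ier3: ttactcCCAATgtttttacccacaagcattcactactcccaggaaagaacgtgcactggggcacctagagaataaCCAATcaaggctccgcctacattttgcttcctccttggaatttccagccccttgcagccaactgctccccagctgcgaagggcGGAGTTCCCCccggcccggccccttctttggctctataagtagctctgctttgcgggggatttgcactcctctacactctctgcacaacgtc

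Of the 7 promoters, 3 held TGACNTCA (Jun, Btg2 and Dusp1), as did 7.5% of 32851 RefSeq promoters of the same length. The full element TGACGTCA was in 2 of them, Btg2 and Dusp1, and in 1.5% of all promoters. CCAAT was in 4 of 7 and in 33.8% of all promoters, and the NF-kB motif was in 2 of 7, Ier3 and Fos, and in 3.9% of all. The AP-1 motif TGANTCA and the CArG box, the site of serum response factor, had no match in these windows, which says only that these letters are not there. The letters TGACNTCA were settled after the sequences were read, and a match is a description and not a bound site.

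Other genes of the same response were read from lists with the same fit. Over all tested genes, 16.2% were called at d35 and 4.37% at d15 relative to naive, and 7.39% at d35 relative to d15. Counts of called genes in the lists below stand beside these shares and were not tested against them. Among 12 tested AP-1 and bZIP partners, 2 fell at d35 relative to naive macrophages, 1 fell at d15 relative to naive and 1 rose at d35 relative to d15. Fosl2, a Fos family member with slower kinetics, had 70.6, 80.1 and 76.9 scaled CPM in d35, 55.6 and 57.0 in d15 and 97.5, 96.2 and 92.8 in naive libraries. The 3 groups did not overlap, and naive replicate 1 was not low for this gene. It fell by 0.33 on the log2 scale at d35 (SE 0.07, limma adjusted p = 0.0148) and by 0.75 at d15 (SE 0.08, adjusted p = 0.0017) relative to naive, and its log2 fold change of d35 over d15 was 0.42 (adjusted p = 0.0112). Maff, a small Maf protein that pairs with bZIP factors, fell by 0.47 at d35 relative to naive (limma adjusted p = 0.0188). Atf4, the most abundant of the list, was at 96.2 ± 12.6 in d35 and 105 ± 5.74 in naive libraries (SD, n = 3 each, limma adjusted p = 0.371).

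Among 16 tested early-response transcription factors, 2 fell at d35 relative to naive, 2 fell at d35 relative to d15 and none passed at d15 relative to naive. Of all tested genes, 16.2%, 7.39% and 4.37% were called in these comparisons. Klf10, a TGF-beta-inducible Kruppel-like factor, fell by 0.39 on the log2 scale at d35 relative to naive (limma adjusted p = 0.00739) and by 0.38 relative to d15 (adjusted p = 0.0192). Ier5 fell by 0.37 relative to naive (limma adjusted p = 0.0183). Myc, a driver of growth programs, was at 69.8, 95.4 and 108 scaled CPM in d35, against 141 and 127 in d15 libraries. It fell by 0.58 on the log2 scale (limma adjusted p = 0.044). Cebpb, the most abundant of these, was at 1978 ± 459 scaled CPM in d35 and 1844 ± 56.6 in naive libraries (SD, n = 3 each, limma adjusted p = 0.741). Median log2 fold changes of this list were -0.24 at d35 and -0.05 at d15 relative to naive, and -0.29 between d35 and d15.

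Among 23 tested feedback and mRNA-decay genes, 2 rose and 4 fell at d35 relative to naive, 2 fell relative to d15 and none passed at d15 relative to naive. The shares of all tested genes called in these comparisons were 16.2%, 7.39% and 4.37%. Socs3, an inhibitor of cytokine receptor signalling, had 103, 48.1 and 146 scaled CPM in d35, against 22.7, 41.4 and 23.8 in naive libraries, and rose by 1.64 on the log2 scale (limma adjusted p = 0.0235). Btg1, a paralog of Btg2, rose by 0.30 (limma adjusted p = 0.0411), opposite in sign to Btg2. The genes that fell at d35 relative to naive were Rgs2, a regulator of G protein signalling, by 0.54, the MAP kinase phosphatase genes Dusp5, by 0.42, and Dusp6, by 0.43, and Tob1, by 0.38, with limma adjusted p of 0.00948, 0.0196, 0.0466 and 0.0319. Dusp6 and Rgs2 were also lower at d35 relative to d15, with log2 fold changes of -0.65 and -0.44 (limma adjusted p = 0.0232 and 0.0498). Zfp36, the most abundant of the list, encodes tristetraprolin, which binds AU-rich elements and speeds decay of early-gene mRNAs. It had 462, 604 and 1111 scaled CPM in d35, 954 and 974 in d15 and 544, 1286 and 1196 in naive libraries, and did not pass in any comparison.

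Of 17 tested genes of upstream signalling, 2 rose and none fell at d35 relative to naive, where 16.2% of all tested genes were called. They were Map2k3, a p38 kinase kinase, by 0.33 (limma adjusted p = 0.0153) and Crem, a CREB family factor, by 0.54 (adjusted p = 0.0217). Rps6ka5, a kinase of CREB and histone H3, fell by 0.65 at d35 relative to d15 (limma adjusted p = 0.00796), as the 1 gene called of 17, where 7.39% of all tested genes were called. No gene of this list passed at d15 relative to naive. Mapk3, which encodes ERK1 and was the most abundant of the list, was at 308 ± 13.1 in d35 and 339 ± 20.4 in naive libraries (SD, n = 3 each, limma adjusted p = 0.191). Of 12 tested heat shock genes, 4 rose at d35 and 3 at d15 relative to naive, with none called between d35 and d15. Over all tested genes, 9.86% were called as higher at d35 and 2.37% at d15 relative to naive. Hspa8, a constitutive chaperone of the HSP70 family, had 951, 1166 and 1260.1 scaled CPM in d35, 1787 and 1557 in d15 and 926, 542 and 611 in naive libraries. It rose by 0.73 at d35 (limma adjusted p = 0.0219) and by 1.30 at d15 (adjusted p = 0.00852). Dnaja1, a co-chaperone of HSP70, rose by 0.77 at d35 and 0.87 at d15 (limma adjusted p = 0.00993 and 0.0253), Hsph1 rose at d15 by 0.66 (adjusted p = 0.0476), and Hspa5, the most abundant of the list, and Hspe1 rose at d35 by 0.54 and 0.52 (adjusted p = 0.0137 and 0.0425).

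The 10 genes whose profile over the 8 libraries lay nearest to the mean profile of the immediate-early genes were Zfp36, Phlda1, Id1, Klf2, Egr2, H3f3b, Ccrl2, Ppp1r15a, Cxcl2 and Klf4. Likeness was the root-mean-square difference of centred log2 values, which was 0.16 for Zfp36 and 0.29 for Klf4, against a median of 0.52 over 8792 genes whose log2 values averaged 3 or more. The mean profile itself was -0.85, -0.41 and 0.25 in d35 replicates 1 to 3, 0.31 and 0.53 in d15 and -0.61, 0.42 and 0.36 in naive libraries. Of the immediate-early genes, Junb (0.14) and Fos (0.24) were nearest to it and Ier3 (0.82) farthest. Cxcl2, which encodes a neutrophil chemokine, had 200, 283 and 516 scaled CPM in d35, 471 and 425 in d15 and 168, 605 and 478 in naive libraries. None of the 10 genes passed the test in any of the 3 comparisons. They were picked for a profile that spread widely within groups, so this outcome was largely set by the choice.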

How the data were processed

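Per the submitters' processing notes, reads were aligned to mm10 with STAR 2.5, and edgeR was used. No source used here names the counting program or its annotation. The deposited expression table holds a scaled signal per gene, which the authors made from counts: 100% of its values were whole reads within 0.001 under (reads + 0.5) / (library size + 1). The authors' deposited d15 table gives, per the file headers, p-values, log2 fold changes and a score from a likelihood-ratio test. The d15 columns carry other numbers than the d15 titles and were used as group replicates A and B. limma 3.58.1 (R 4.3.3) tested log2(value + 1) with an intensity trend for the 11273 genes that reached a value of 1 in 2 or more libraries, with group as the only term, 5 residual df and 5.72 prior df. Members, lists and tests were chosen with earlier results of these data known. All 8 members were named, as were called genes of each list (up to 6) and its most abundant gene. Alternatives were other pseudocounts, filters, scalings, a length correction (99.5% of genes had a length in GENCODE vM21), left-out libraries, a replicate block, limma-voom, and edgeR 4.0.16 and DESeq2 1.42.0 on the recovered reads. The limma step was tested on simulated data.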

Additional observations from a re-analysis of the deposited data

Results flagged for a closer look

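Jun differed between the tumor groups in the d35 over d15 test given above, which is repeated here and is not a second test. Its log2 fold change over naive macrophages was -1.18 at d35 and 0.52 at d15, and the d35 effect minus the d15 effect was -1.69 (SE 0.32, limma adjusted p = 0.0107), with all 3 d35 libraries below both d15 libraries. No group had the 4 libraries needed to look for single outlying samples by a formal criterion.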

How the results depend on the processing

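Each of the 8 genes had at least 327 reads in every library, and the groups held 2 or 3 libraries each. The count of immediate-early genes called at d15 over naive was 1, and 0 after length correction and 2 with only these groups fitted, and it ranged from 0 to 1 when single libraries were left out. At d35 over naive it was 3, ranging from 0 (without naive replicate 2) to 5 (without naive replicate 1), and at d35 over d15 it was 1, ranging from 0 (without d15 replicate B) to 1. Without replicate 1 of naive and of d35 it was 2 at d35 over d15, with Fos added (-0.63, limma adjusted p = 0.041). Over all genes the counts were 493, 1824 and 833. Leaving out single libraries gave 11 (without d15 replicate B) to 1084 (without d35 replicate 3), 628 (without naive replicate 2) to 2288 (without d35 replicate 2) and 184 (without d15 replicate B) to 1046 (without d35 replicate 2). DESeq2 called 1451 genes at d15 over naive and 1368 at d35 over d15, and fits of only the groups compared called 1454 and 411. Without replicate 1 of naive and of d35 the counts were 312, 493 and 518. Directions turned for values that were not called. At d15 over naive, with single libraries left out, Junb ranged from -0.12 (without naive replicate 1) to 0.42, Atf3 from -0.46 to 0.32 (without naive replicate 2, and 0.16 without d15 replicate B), Egr1 from -0.82 (without naive replicate 1, and -0.01 without d15 replicate B) to 0.67, and Btg2 from -0.70 to 0.0015 (without d15 replicate A). Without replicate 1 of naive and of d35, Junb was at -0.12 and Egr1 at -0.82, and Egr1 was at -0.34 with edgeR and -0.35 with DESeq2. At d35 over naive, Atf3 ranged from -0.55 to 0.23 (without naive replicate 2) and Dusp1 from -0.46 to 0.40 (without d35 replicate 1), with Dusp1 at 0.31 without replicate 1 of both groups, 0.06 with edgeR and 0.05 with DESeq2. At d35 over d15, Atf3 ranged from -0.31 to 0.12 (without d15 replicate A, and 0.01 without d35 replicate 2) and Ier3 from -0.53 to 0.02 (without d35 replicate 1, and also without replicate 1 of both groups). The causes were not tested. Naive and d35 titles share replicate numbers, and deviations of same-numbered libraries correlated across genes at -0.01, -0.05 and 0.15, so the numbers were not taken as pairs. With a replicate block, 4 of the 8 genes were called at d35, Fos (-0.59, limma adjusted p = 0.0233) beside Jun, Btg2 and Ier3, and 1461 genes in all. Naive replicate 1 correlated best with d35 replicate 2 (0.1).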

Other observations

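Ier2 and Nr4a1 are given here because their values in naive replicate 1 were seen to be low. Ier2, an early gene of the same family as Ier5, had 295, 288 and 621 scaled CPM in d35, 696 and 1005 in d15 and 332, 1005 and 1026 in naive libraries, and did not pass in any comparison. Nr4a1, an orphan nuclear receptor induced by antigen and inflammatory signals, had 17.3, 19.7 and 38.7 in d35, 35.2 and 25.2 in d15 and 23.5, 94.7 and 72.6 in naive libraries (limma adjusted p = 0.0918 at d35 and 0.294 at d15 relative to naive).

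Some ratios between the 8 genes lay on 1 side of the naive range in every d35 and d15 library. Of the 28 pairs, 11 did not overlap between d15 and naive and 8 between d35 and naive libraries. The share over pairs of all genes was not computed, so these counts have no background. Ratios to Ier3 in part restate the higher Ier3 level given above. The ratio of Btg2 to Ier3 was 15.7, 19.9 and 12.0 in d35, 16.5 and 25.5 in d15 and 42.7, 114 and 74.5 in naive libraries. The ratios of Dusp1 to Ier3 and of Junb to Ier3 were also below every naive library in d35 and d15, and the ratio of Junb to Btg2 was above, at 1.5 to 1.99 in d35, 1.48 and 2.03 in d15 and 0.972 to 1.31 in naive libraries. The ratio of Jun to Junb did not follow this pattern, being lower than in naive libraries at d35 and higher at d15. These are descriptions of pairs that share genes and libraries, and none was tested.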
